A study of Mus musculus with 16 samples.

Results

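The genes described here are 10 genes of the interleukin-1 (IL-1) receptor complex and its signalling chain, measured in fibroblasts of the mouse gum (murine gingival fibroblasts, mGF). They were chosen by name out of 56941 genes counted. Of the 10, 4 are grouped here as the receptor complex (Il1r1, Il1rap, Il1rl1 and the antagonist Il1rn). The other 6 belong to the adaptor and kinase chain (Myd88, Irak1, Irak2, Irak3, Irak4 and Traf6). All 10 were among the 16306 genes with enough counts to be tested. The 10 genes and the gene lists below were chosen with earlier results of these data known. The cells were primary wild-type mGF grown out of gingival explants from around the maxillary second molar of C57Bl6 mice aged 3 to 6 months and used at passages 2 to 8. There were 4 libraries in each of 4 conditions of 24 h. BSA (control) cells received BSA alone, the protein that carries palmitate. IL-1β cells received 1 ng/mL recombinant mouse IL-1β, and the paper describes BSA as the vehicle with or without IL-1β. Palmitate cells received 200 μM palmitate on BSA, and palmitate + IL-1β cells received both agents. No allele or transgene differed between the conditions. The labels do not say whether the 4 libraries of a condition came from separate cultures or animals, so the p-values measure the spread between these libraries, which may be technical.

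IL-1α and IL-1β bind the receptor IL1R1, encoded by Il1r1, which then recruits the accessory chain encoded by Il1rap. The paired cytoplasmic domains assemble MyD88, IRAK4, IRAK1 and IRAK2 into a complex that passes the signal to the ubiquitin ligase TRAF6 and on to the TAK1, IKK and MAP kinases. Il1rl1 encodes ST2, the receptor of IL-33, which shares the accessory chain, Il1rn encodes the receptor antagonist, and Irak3 encodes IRAK-M, a negative regulator of the chain. Fibroblasts of connective tissue are well known to respond to IL-1 with cytokines and chemokines.

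The libraries held 21234789 to 92752515 counts on genes, with a median of 27943964.5, and a palmitate library, replicate 10, was the deepest. A value of 3 counts, taken as the floor, corresponded to 0.0331 to 0.146 CPM, the count as a share of its library on a fixed scale. Levels are CPM after TMM scaling. Levels of different genes are compared only as RPKM, the CPM divided by the kilobases of exon over all annotated transcripts. All 9 fibroblast markers were detected, and their summed level was 31600 to 33500 CPM in BSA, 33190 to 33710 CPM in IL-1β, 29240 to 31320 CPM in palmitate and 28470 to 30460 CPM in palmitate + IL-1β libraries. The summed markers of keratinocytes, macrophages and other leukocytes, mast cells, endothelial cells and Schwann cells stayed at or below 4.35 CPM in every library. In bulk RNA, fewer cells of a type and less RNA per cell cannot be told apart.

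Palmitate raised the RNA of all 4 genes grouped as the receptor complex and of 2 of the 6 genes of the signalling chain. The group includes the IL-33 receptor gene Il1rl1 and the antagonist Il1rn. The IL-1 receptor chains Il1r1 and Il1rap rose by 0.59 and 0.44 on the log2 scale with palmitate. IL-1β alone raised 3 of the 4, but the call of Il1rap was near the threshold (adjusted p = 0.046, edgeR) and was lost under most other settings. Il1rn, the antagonist, changed most against BSA in palmitate, followed by Il1rl1 and by Irak3, the inhibitory IRAK gene. The core kinases Irak4 and Irak1 and the ligase Traf6 did not pass the test in any of the 3 comparisons with BSA. A gene was called at a Benjamini-Hochberg adjusted p under 0.05 by edgeR's quasi-likelihood test over all 16306 genes. With palmitate 7 of the 10 genes were called, 6 higher and 1 lower, against a background of 37.3% of all genes tested (19.8% higher and 17.5% lower). The libraries of 7 of the 10 genes did not overlap between palmitate and BSA, beside 36% of all genes. With IL-1β 3 of the 10 genes were called, all higher, where 15.1% of all genes were called, 10.1% higher and 4.97% lower, and 4 of the 10 had libraries that did not overlap, beside 17.6% of all genes. With palmitate + IL-1β 7 of the 10 were called, 6 higher and 1 lower, where 47.3% of all genes were called, 24.8% higher and 22.5% lower, and 7 of the 10 did not overlap, beside 41.5%. The median log2 fold change of the 10 genes was 0.40 with palmitate, 0.15 with IL-1β and 0.45 with both, beside medians over all genes of -0.0030, -0.0049 and 0.0017. These 3 comparisons share the BSA libraries, so their values stand side by side and are not independent. Adding palmitate to IL-1β gave 6 of 10 genes called against IL-1β alone, all higher, with 35% of all genes called and 18.9% higher. Of the 10 genes 5 did not overlap in that comparison, beside 31.3% of all genes. Adding IL-1β to palmitate gave 2 of 10 called against palmitate alone, Il1rl1 higher and Il1rn lower, with 9.81% of all genes called, 5.71% higher and 4.1% lower, and these 2 genes did not overlap, beside 16.7% of all genes. Palmitate exceeded IL-1β in 6 of the 10 genes, with 31.6% of all genes called and 16.5% higher, and the same 6 genes did not overlap, beside 31.1%.

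**Figure D1:**
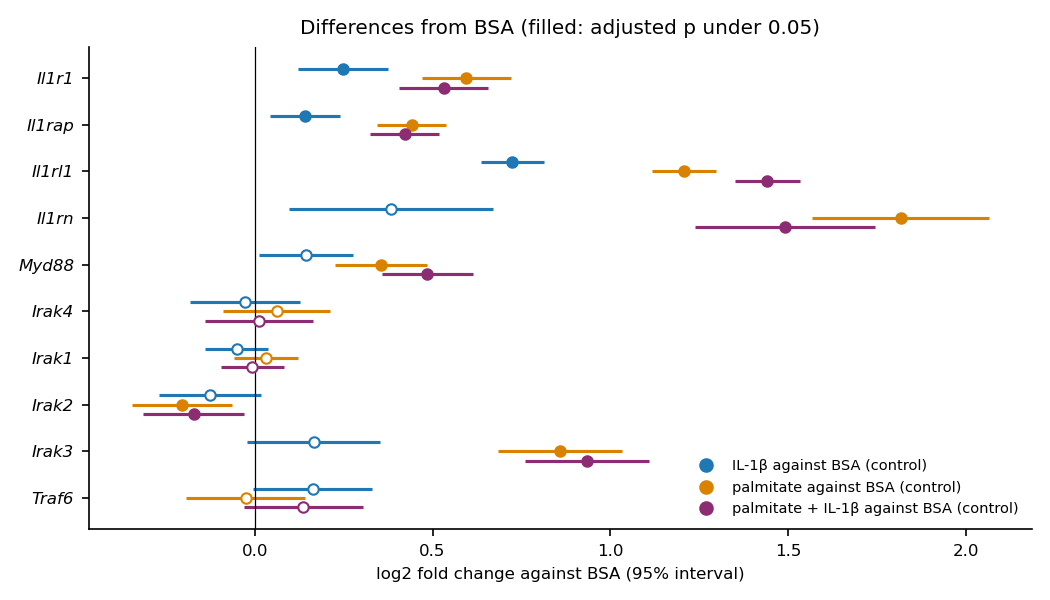
Log2 fold change of the 10 genes against BSA (control) for each treatment, 4 libraries each, with the 95% interval of the fit; filled points passed an adjusted p under 0.05. The receptor genes, the antagonist Il1rn and Irak3 lie to the right of 0 with palmitate, up to 1.82 for Il1rn. Irak1, Irak4 and Traf6 have open points in each of the 3 comparisons.

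The genes spanned a wide range of levels. In BSA cells Il1rl1 had 68.0 ± 4.20 RPKM (SD, n = 4) and ranked 269 among the 16306 genes tested. Irak1 followed with 13.5 ± 0.136 RPKM, then Il1r1 with 6.27 ± 0.362, Myd88 with 4.81 ± 0.318 and Il1rap with 3.02 ± 0.117 RPKM. Traf6, Irak2 and Irak4 came next, with 2.43 ± 0.235, 2.32 ± 0.154 and 2.31 ± 0.178 RPKM, and the neighbours in this order had overlapping libraries. Irak3 stood at 1.17 ± 0.0637 RPKM and Il1rn was lowest with 0.388 ± 0.0310 RPKM. In palmitate cells the order from Il1rl1 to Il1rap was as in BSA. There Irak3, at 2.11 ± 0.218 RPKM, overlapped its neighbours Traf6 and Irak2, and Il1rn, at 1.37 ± 0.160 RPKM, was still the lowest. The order depends on the exon lengths used. The annotated exons of Il1rap span 15.28 kilobases and its canonical transcript has 4677 bases. For Il1r1 they are 6.816 kilobases and 5888 bases. With more CPM in BSA and a shorter canonical transcript, Il1rap would stand above Il1r1 on canonical lengths.

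Il1r1, the signalling receptor of IL-1, had 41.2, 40.5, 46.0 and 43.2 CPM in the BSA libraries. The IL-1β libraries held 47.3, 49.0, 49.5 and 57.2 CPM, the palmitate libraries 65.9, 63.6, 64.0 and 64.4 CPM, and the palmitate + IL-1β libraries 67.4, 65.2, 54.2 and 59.6 CPM. Every treated library was above every BSA library, and the palmitate and combined libraries overlapped, as did the IL-1β and combined libraries. The log2 fold change against BSA was 0.59 ± 0.06 (SE) with palmitate (adjusted p = 4.16e-09, edgeR), 0.25 ± 0.06 with IL-1β (adjusted p = 0.00562, edgeR) and 0.53 ± 0.06 with both (adjusted p = 2.48e-08, edgeR). Palmitate + IL-1β against palmitate gave -0.06 ± 0.06, with a 95% interval of -0.19 to 0.06 and adjusted p = 0.594 (edgeR).

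Il1rap, the accessory chain shared by the IL-1 and IL-33 receptors, moved in a like order. Its levels were 43.9, 45.4, 47.5 and 47.6 CPM in BSA and 48.4, 52.6, 49.0 and 53.3 CPM in IL-1β libraries. They were 64.8, 62.1, 59.0 and 64.8 CPM with palmitate and 61.6, 65.1, 60.8 and 59.5 CPM with both agents. The IL-1β libraries lay just above the BSA libraries, and the palmitate and combined libraries overlapped each other well above both. Palmitate raised Il1rap by 0.44 ± 0.05 on the log2 scale (SE, adjusted p = 4.5e-09, edgeR) and both agents by 0.42 ± 0.05 (adjusted p = 7.83e-09, edgeR). The value for IL-1β was 0.14 ± 0.05 (adjusted p = 0.046, edgeR), a call lost under 5 of 7 other settings (adjusted p up to 0.176) and without any of BSA replicates 1 and 2 or IL-1β replicates 6 and 8 (adjusted p of 0.121 to 0.187). The ratio of Il1rap to Il1r1 in RPKM was 0.482 ± 0.0179 in BSA, 0.448 ± 0.0264 with IL-1β, 0.433 ± 0.0159 with palmitate and 0.449 ± 0.038 with both (SD, n = 4). For this ratio the BSA libraries overlapped with the IL-1β and the combined libraries and not with the palmitate libraries. Its size, unlike its change between conditions, depends on the exon lengths used.

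Il1rl1, the ST2 gene, had 435, 461, 505 and 475 CPM in BSA and 733, 768, 804 and 794 CPM in IL-1β libraries. Palmitate libraries held 1106, 1075, 1059 and 1089 CPM and combined libraries 1239, 1314, 1268 and 1275 CPM. No library of any condition overlapped with another condition, and the 4 conditions formed a ladder with BSA lowest and both agents highest. The log2 fold change was 1.21 ± 0.04 with palmitate (SE, adjusted p = 1.92e-20, edgeR), 0.72 ± 0.04 with IL-1β (adjusted p = 4.65e-14, edgeR) and 1.44 ± 0.04 with both (adjusted p = 1.45e-22, edgeR). IL-1β on top of palmitate added 0.24 ± 0.04 (adjusted p = 0.000311, edgeR). In RPKM the gene reached 112 ± 4.61 with IL-1β, 157 ± 2.92 with palmitate and 185 ± 4.49 with both, where it ranked 104 among genes tested. The ratio of Il1rl1 to Il1r1 in RPKM was 10.9 ± 0.331 in BSA, 15.2 ± 1.00 with IL-1β, 16.6 ± 0.167 with palmitate and 20.6 ± 2.08 in the combined libraries (SD, n = 4). Mast cells are known to carry much ST2, and the summed mast cell markers were 0.191 to 0.315 CPM in BSA, 0.246 to 0.859 CPM with IL-1β alone, 0.486 to 0.639 CPM with palmitate alone and 0.675 to 1.02 CPM in the combined libraries. Of the 6 genes of that list, Kit, the stem cell factor receptor, had 0.217 ± 0.0234 CPM in BSA (5 to 7 counts a library), 0.538 ± 0.236 with IL-1β, 0.377 ± 0.0886 with palmitate and 0.614 ± 0.126 CPM with both (SD, n = 4). It was called higher with IL-1β (log2 fold change 1.29, adjusted p = 0.0172, edgeR) and with both agents (1.49, adjusted p = 0.000952, edgeR), and not with palmitate (0.87, adjusted p = 0.0685, edgeR). Hdc, the histamine-forming enzyme, was too low to be tested, with 0 to 2 counts a library in BSA, 0 to 1 with IL-1β, 2 to 13 with palmitate and 3 to 8 with both. The mast cell proteases Cpa3 and Mcpt4 had no count in any library, Fcer1a had at most 1 count and Tpsb2 at most 2. The part of such cells in the Il1rl1 result was not tested.

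Il1rl1 is annotated with a long and a short form, and a count per gene adds them together. In the GENCODE vM39 annotation (build GRCm39) the canonical transcript starts at position 40478787 of chromosome 1, has 11 exons and encodes 567 residues. A transcript from the same start and another from position 40468730 have 8 exons and encode 337 residues. The longer protein is the membrane receptor, and the shorter is the soluble form that binds IL-33 without signalling. How the 24 h difference divided between them was not analysed here.

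**Figure D2:**
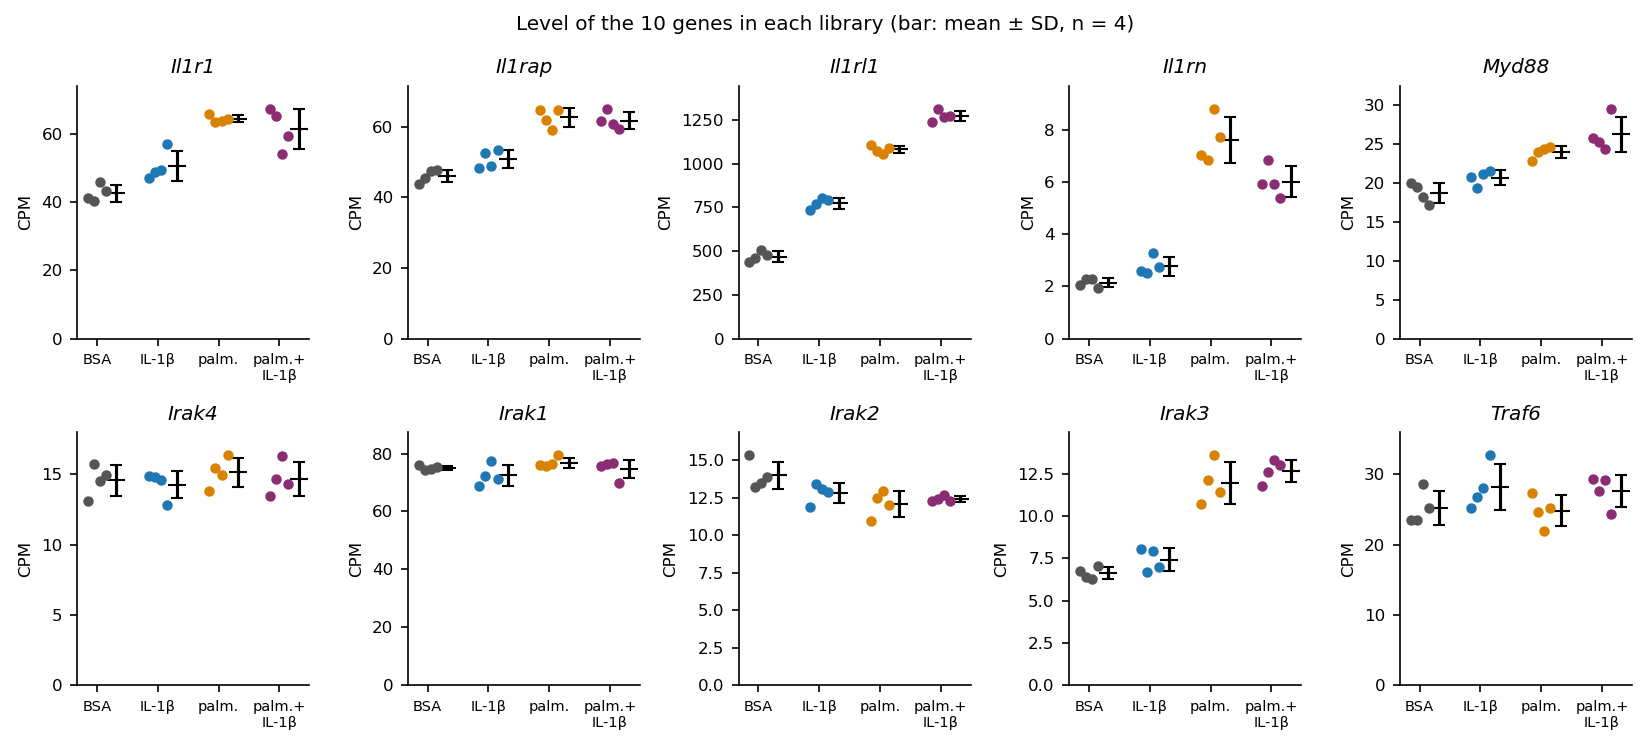
CPM of each of the 10 genes in each library (points, from replicate 1 at the left of BSA to replicate 16 at the right of palmitate + IL-1β), with the mean ± SD of the 4 libraries beside them; every axis starts at 0. Il1rl1 forms 4 separate steps from 435 to 1314 CPM, Il1rn and Irak3 separate the libraries with palmitate from those without, and the 4 conditions overlap for Irak4 and Traf6.

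Il1rn, the receptor antagonist, was a low gene with 56 to 622 counts a library. It had 2.04, 2.29, 2.29 and 1.96 CPM in BSA and 2.58, 2.50, 3.29 and 2.73 CPM in IL-1β libraries. Palmitate libraries held 7.04, 6.86, 8.81 and 7.72 CPM and palmitate + IL-1β libraries 5.92, 6.85, 5.95 and 5.38 CPM. The libraries with palmitate were all above those without it, and the combined libraries were just below those with palmitate alone. Palmitate raised Il1rn by 1.82 ± 0.12 on the log2 scale (SE, adjusted p = 9e-14, edgeR), and both agents raised it by 1.49 ± 0.12 (adjusted p = 1.19e-11, edgeR). IL-1β alone gave 0.38 ± 0.14, which did not pass the test (adjusted p = 0.0634, edgeR) although its libraries did not overlap with those of BSA. Palmitate + IL-1β was lower than palmitate by -0.33 ± 0.11 on the log2 scale (adjusted p = 0.0461, edgeR), a call lost without any of palmitate replicates 9, 11 and 12 or palmitate + IL-1β replicates 13, 15 and 16, with adjusted p of 0.0553 to 0.21.

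Il1r1 and Il1rl1 lie in a row of 6 receptor genes on the plus strand of chromosome 1 that spans 477627 bases of GRCm39, from position 40113239 to 40590865, in the order Il1r2, Il1r1, Il1rl2, Il1rl1, Il18r1 and Il18rap. Il1r1 occupies 40264174 to 40356417 and Il1rl1 40468730 to 40504575. Il18r1 starts at 40504712, just after the end of Il1rl1, and yet had 0.0401 ± 0.0189 RPKM in BSA and 0.0405 ± 0.0135 RPKM in palmitate libraries (SD, n = 4), with 2 to 16 counts a library, too few to be tested. Il18rap, the accessory chain of the IL-18 receptor, rose by 0.86 ± 0.07 with palmitate on the log2 scale (SE, adjusted p = 8.37e-12, edgeR), by 0.29 ± 0.07 with IL-1β (adjusted p = 0.00571, edgeR) and by 0.78 ± 0.07 with both (adjusted p = 5.86e-11, edgeR). Il1rl2, the IL-36 receptor, gave 0.18 ± 0.07 with palmitate (adjusted p = 0.0532, edgeR) and rose by 0.20 ± 0.07 with both agents (adjusted p = 0.0244, edgeR). Il1r2, the decoy receptor of IL-1, had too few counts to be tested, with 0 to 6 counts in BSA, 1 to 4 in IL-1β, 6 to 45 in palmitate and 5 to 16 in palmitate + IL-1β libraries, the 45 being in the deepest library, at 0.496 CPM.

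**Figure D3:**
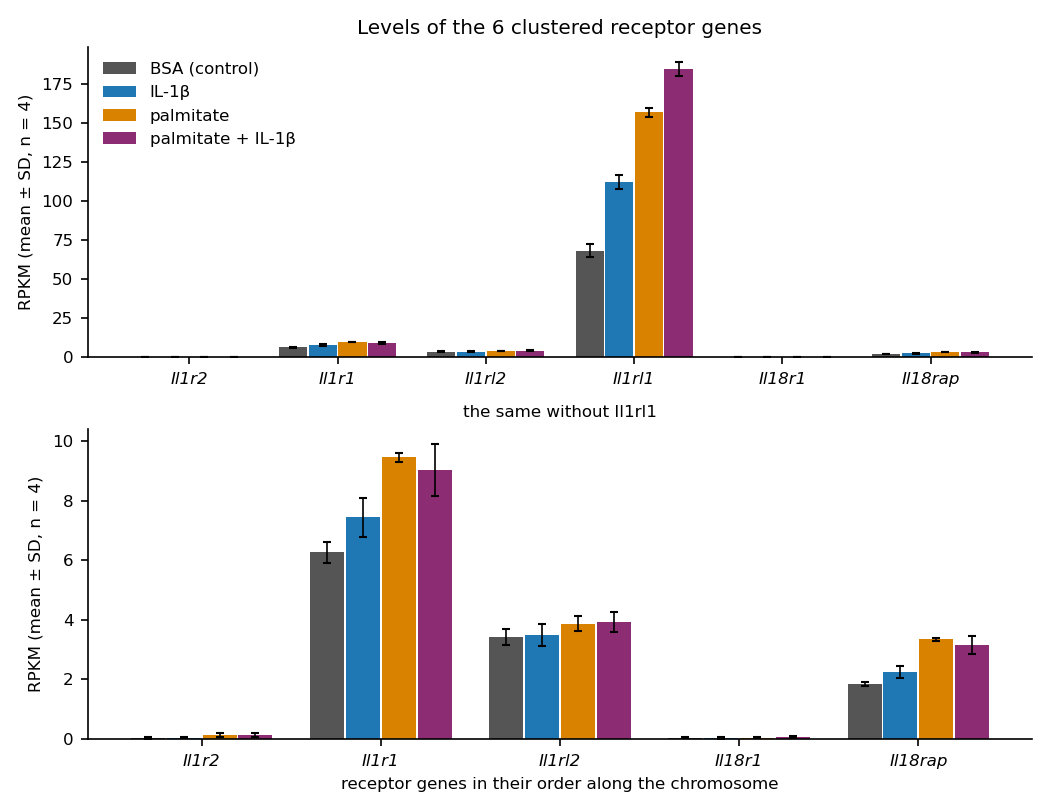
RPKM of the 6 receptor genes in their order along chromosome 1 in the 4 conditions (bars, mean ± SD of 4 libraries), all together above and without Il1rl1 below. Il1rl1 stands at 68.0 RPKM in BSA and 185 RPKM with both agents, Il1r1 at 6.27 to 9.46 RPKM, and Il1r2 and Il18r1 near 0.

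The 250 bases before some start sites of Il1rl1, Il1r1 and Il1rn, which are among the 6 genes called higher with palmitate, are shown. They were read from GRCm39 at the starts of GENCODE vM39, with matches to 5 motifs in capitals.
Il1rl1, start 40478787, chr1:40478537-40478786, plus strand: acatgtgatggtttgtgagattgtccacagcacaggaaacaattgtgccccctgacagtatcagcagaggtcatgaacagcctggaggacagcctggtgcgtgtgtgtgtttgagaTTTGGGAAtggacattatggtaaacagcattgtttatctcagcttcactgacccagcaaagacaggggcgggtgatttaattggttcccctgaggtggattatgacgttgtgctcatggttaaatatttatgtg
Il1rl1, start 40468730, chr1:40468480-40468729, plus strand: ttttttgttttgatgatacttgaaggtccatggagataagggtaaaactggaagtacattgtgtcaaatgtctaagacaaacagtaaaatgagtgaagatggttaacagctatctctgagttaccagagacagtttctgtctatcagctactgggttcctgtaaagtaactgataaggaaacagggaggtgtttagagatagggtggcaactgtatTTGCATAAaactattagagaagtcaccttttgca
Il1r1, start 40305698, chr1:40305448-40305697, plus strand: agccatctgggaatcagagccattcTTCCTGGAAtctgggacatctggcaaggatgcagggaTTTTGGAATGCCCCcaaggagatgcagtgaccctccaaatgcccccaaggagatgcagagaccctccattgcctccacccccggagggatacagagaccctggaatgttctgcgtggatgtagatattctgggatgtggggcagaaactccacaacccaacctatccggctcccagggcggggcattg
Il1rn, start 24226865, chr2:24226615-24226864, plus strand: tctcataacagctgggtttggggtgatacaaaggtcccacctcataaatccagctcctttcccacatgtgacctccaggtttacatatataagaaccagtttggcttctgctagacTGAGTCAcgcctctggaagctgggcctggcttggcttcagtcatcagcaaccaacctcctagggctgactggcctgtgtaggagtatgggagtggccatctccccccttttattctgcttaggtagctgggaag
Il1rn, start 24235300, chr2:24235050-24235299, plus strand: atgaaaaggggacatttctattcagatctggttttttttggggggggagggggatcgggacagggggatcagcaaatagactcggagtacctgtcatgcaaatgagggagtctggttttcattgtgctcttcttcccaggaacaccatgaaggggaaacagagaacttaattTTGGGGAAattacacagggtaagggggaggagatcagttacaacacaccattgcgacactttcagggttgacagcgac
The motifs, searched on both strands, were the NF-κB consensus, AP-1 (TGANTCA), C/EBP (TTNNGNAA), the interferon-stimulated response element (ISRE, GAAANNGAAA) and the interferon-gamma activated site (GAS, TTCNNNGAA). The canonical start of Il1rl1 has a C/EBP match at -134 to -127 from the start, and its upstream start has another at -34 to -27. In Il1r1 a GAS match lies at -225 to -217, and a C/EBP match at -188 to -181 overlaps an NF-κB match at -184 to -175. Il1rn has an AP-1 match at -134 to -128 before its canonical start and a C/EBP match at -78 to -71 before the start at 24235300. Of the other genes called higher with palmitate, Il1rap and Irak3 had no match in their windows. Myd88 had a C/EBP match at -48 to -41. Traf6, which was not called with palmitate, had an AP-1 match at -116 to -110 and a C/EBP match at -168 to -161. At the canonical starts the NF-κB consensus was found in 1 of the 10 genes (7.35% of 21757 protein-coding windows), AP-1 in 2 (6.36%), C/EBP in 4 (38.1%), GAS in 1 (7.91%) and ISRE in 0 (3.41%). A match here is a description of the letters and was not tested for binding.

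Myd88, the adaptor that joins the receptor to the kinases, is on chromosome 9, minus strand, at 119165000 to 119170486. BSA libraries held 19.9, 19.5, 18.2 and 17.2 CPM and IL-1β libraries 20.8, 19.4, 21.2 and 21.5 CPM, which overlapped. Palmitate libraries held 22.9, 23.9, 24.4 and 24.6 CPM and palmitate + IL-1β libraries 25.8, 25.4, 24.4 and 29.5 CPM, all above those without palmitate. The log2 fold change was 0.35 ± 0.06 with palmitate (SE, adjusted p = 2.93e-05, edgeR) and 0.48 ± 0.06 with both agents (adjusted p = 1.08e-07, edgeR). IL-1β gave 0.14 ± 0.06 (adjusted p = 0.139, edgeR). On the opposite strand Myd88 overlaps Acaa1a over 18.0% of its canonical transcript, and reads were counted by strand.

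Irak3, which encodes the inhibitory IRAK-M, rose most among the IRAK genes. It lies on chromosome 10, minus strand, at 119975568 to 120038035. BSA libraries had 6.78, 6.37, 6.29 and 7.06 CPM and IL-1β libraries 8.06, 6.72, 7.91 and 7.00 CPM. With palmitate the libraries had 10.7, 12.1, 13.6 and 11.4 CPM and with both agents 11.8, 12.6, 13.3 and 13.0 CPM. The libraries with and without palmitate did not overlap, and IL-1β made no separation in either background. Palmitate raised Irak3 by 0.86 ± 0.09 on the log2 scale (SE, adjusted p = 8.66e-10, edgeR) and both agents by 0.93 ± 0.09 (adjusted p = 9.14e-11, edgeR), while IL-1β gave 0.17 ± 0.09 (adjusted p = 0.251, edgeR). The ratio of Irak3 to Irak1 in RPKM was 0.0867 ± 0.00420 in BSA, 0.101 ± 0.0103 with IL-1β, 0.153 ± 0.0168 with palmitate and 0.167 ± 0.0129 in the combined libraries (SD, n = 4).

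Irak2, a kinase-like partner of IRAK1, was the only member lower than in BSA by the test. Its levels were 15.3, 13.2, 13.5 and 13.9 CPM in BSA, 11.9, 13.4, 13.1 and 12.9 CPM in IL-1β libraries, 10.9, 12.5, 12.9 and 12.0 CPM with palmitate and 12.3, 12.4, 12.7 and 12.3 CPM with both. BSA replicate 1 was the highest of the 16, every palmitate and combined library was below every BSA library, and IL-1β libraries overlapped with BSA. Irak2 fell by 0.20 ± 0.07 on the log2 scale with palmitate (SE, adjusted p = 0.0192, edgeR) and by 0.17 ± 0.07 with both agents (adjusted p = 0.0412, edgeR). Without BSA replicate 1 neither passed, with adjusted p = 0.0825 and 0.135 (edgeR), and the palmitate call was also lost without palmitate replicate 9 (adjusted p = 0.0737, edgeR). The combined call was also lost without BSA replicate 4 or any 1 of the 4 combined libraries, with adjusted p of 0.0537 to 0.0766. Of the canonical Irak2 transcript, 53.5% matched transcripts of other genes at 95% identity or more over at least 100 bases, and reads that aligned to several places were not counted.

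Irak4, the kinase that starts the chain, had 12.8 to 16.4 CPM over the 16 libraries, and all conditions overlapped. Its log2 fold change was 0.06 with palmitate (95% interval -0.09 to 0.21), -0.03 with IL-1β (-0.18 to 0.13) and 0.01 with both (-0.14 to 0.16). Irak1, the next kinase, ranged from 68.8 to 79.4 CPM, with 0.03 for palmitate (-0.06 to 0.12), -0.05 for IL-1β (-0.14 to 0.04) and -0.01 for both (-0.10 to 0.08). Traf6 ranged from 22.0 to 32.7 CPM, with -0.03 for palmitate (-0.19 to 0.14), 0.16 for IL-1β (-0.01 to 0.33) and 0.14 for both (-0.03 to 0.30). None of these intervals reaches the 0.35 measured for Myd88 with palmitate. Without BSA replicate 3 the Traf6 value with both agents was 0.20 and passed the test (adjusted p = 0.0383, edgeR).

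Whether palmitate acted alike with and without IL-1β was asked by the interaction, the log2 effect of palmitate in the presence of IL-1β minus that in its absence. It passed in 2 of the 10 genes, both negative, where 1.99% of all genes passed and 1.83% were negative. For Il1rl1 the effect of palmitate was 1.21 ± 0.04 without and 0.72 ± 0.04 with IL-1β, a difference of -0.49 ± 0.06 (SE, adjusted p = 1.98e-06, edgeR). For Il1rn it was 1.82 ± 0.12 without and 1.11 ± 0.12 with IL-1β, a difference of -0.71 ± 0.18 (adjusted p = 0.0222, edgeR). That call was lost without BSA replicate 1 or 4, IL-1β replicate 7 or palmitate replicate 11, with adjusted p of 0.0599 to 0.113. Il1r1 had a difference of -0.31 ± 0.09, just short of the threshold (adjusted p = 0.0556, edgeR), and it passed with DESeq2 (adjusted p = 0.0418) and without any of BSA replicate 3, IL-1β replicate 5 or palmitate + IL-1β replicates 13 and 14 (adjusted p of 0.0159 to 0.0385). Il1rap gave -0.16 ± 0.07 (adjusted p = 0.352, edgeR). The signalling genes gave differences from -0.09 for Irak3 to 0.16 for Irak2, none of which passed.

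**Figure D4:**
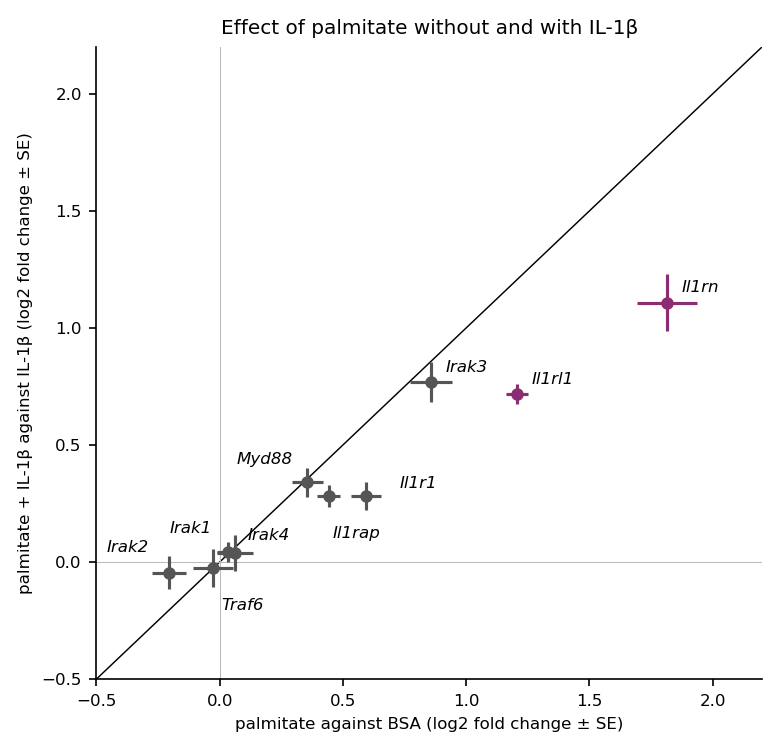
Log2 effect of palmitate without IL-1β (horizontal) and with IL-1β (vertical) for the 10 genes, ± SE; the 2 effects of a gene rest on separate libraries, and the line marks equal effects. Il1rn (1.82 and 1.11) and Il1rl1 (1.21 and 0.72), in purple, passed the test of the difference and lie below the line.

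Most of the ligand genes of the IL-1 family were scarce. Il1b had 2 counts in all 16 libraries together, 1 in BSA replicate 2 and 1 in IL-1β replicate 7. Il1a had 0 to 6 counts a library, and 2 of the 9 ligand genes, Il33 and Il18, could be tested. Il18 had 5.6 ± 0.417 CPM in BSA, 5.52 ± 0.543 with IL-1β, 5.07 ± 0.32 with palmitate and 5.38 ± 1.05 CPM with both (SD, n = 4). Il33, the ligand of ST2, was 2.84 ± 0.288 CPM in BSA, 2.43 ± 0.425 in IL-1β, 1.89 ± 0.180 in palmitate and 1.53 ± 0.373 CPM with both (SD, n = 4). It fell by 0.62 ± 0.17 with palmitate on the log2 scale (SE, adjusted p = 0.0032, edgeR) and by 0.88 ± 0.17 with both agents (adjusted p = 7.45e-05, edgeR), opposite in sign to Il1rl1.

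The genes listed for release or binding of the ligands rose with palmitate. The list includes Ece1, the endothelin-converting enzyme, whose action on these ligands was not tested. All 5 of this list (Casp1, Casp4, Gsdmd, Il18bp and Ece1) were called higher with palmitate and with both agents, and 2 of 5 with IL-1β, beside 19.8%, 24.8% and 10.1% of all genes tested. The medians were 0.83, 0.95 and 0.11 on the log2 scale. Casp4, the caspase that senses cytosolic lipopolysaccharide, rose from 4.41 ± 0.369 CPM in BSA to 12.0 ± 0.653 with IL-1β, 23.7 ± 1.86 with palmitate and 30.2 ± 2.12 CPM with both (SD, n = 4). Casp1, which cleaves pro-IL-1β, rose by 1.64 ± 0.24 with palmitate on the log2 scale (SE, adjusted p = 1.24e-06, edgeR) from 0.601 CPM and gave -0.20 ± 0.30 with IL-1β (adjusted p = 0.73, edgeR). Gsdmd, the pore former cut by these caspases, rose by 0.83 ± 0.06 with palmitate (adjusted p = 1.83e-13, edgeR), and Il18bp, a soluble binder of IL-18, by 0.79 ± 0.17 (adjusted p = 0.000363, edgeR).

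Around and downstream of TRAF6, genes were called in both directions. Of 15 partners of TRAF6 and TAK1, 2 rose and 2 fell with palmitate, 2 rose with IL-1β, and 5 rose and 2 fell with both agents, which is no more than the 37.3%, 15.1% and 47.3% of all genes called in these comparisons. The medians were 0.04, 0.05 and 0.06 on the log2 scale. Sqstm1, the scaffold p62, rose from 1001 ± 36.9 CPM in BSA to 1564 ± 97.9 with IL-1β, 2336 ± 103 with palmitate and 3063 ± 166 CPM with both (SD, n = 4). Peli2, a ubiquitin ligase of the IRAK complex, fell by 0.64 ± 0.05 with palmitate (SE, adjusted p = 7.53e-13, edgeR) and by 0.82 ± 0.05 with both (adjusted p = 1.31e-15, edgeR). Tifa, a TRAF6 adaptor, rose by 0.32 ± 0.10 with IL-1β (adjusted p = 0.0344, edgeR), and Ube2n, the ubiquitin-conjugating enzyme of TRAF6, fell by 0.30 ± 0.05 with both agents (adjusted p = 5.81e-06, edgeR). Of 11 IKK and MAP kinase genes, 6 rose and 1 fell with palmitate, 2 rose with IL-1β, and 7 rose and 1 fell with both, beside the same shares of all genes, and the count with IL-1β lay near its share. The medians were 0.19, 0.03 and 0.23. Map3k8, the kinase TPL2, rose by 1.61 ± 0.10 with palmitate (adjusted p = 4.68e-14, edgeR) and by 0.94 ± 0.11 with IL-1β (adjusted p = 2.15e-07, edgeR), and Map2k6, a p38 activator, fell by 1.00 ± 0.11 with palmitate (adjusted p = 8.14e-09, edgeR). Ikbkg, the IKK scaffold NEMO, rose by 0.37 ± 0.04 with palmitate (adjusted p = 1.8e-09, edgeR) and by 0.18 ± 0.04 with IL-1β (adjusted p = 0.000958, edgeR), and Mapk9 by 0.28 ± 0.04 with palmitate (adjusted p = 6.62e-06, edgeR).

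At the end of the chain stood 10 genes known to respond to IL-1. The list was chosen with earlier results of these data known, so its counts are a description and not an independent test. Csf3 and Lcn2 had 0 to 5 counts in the BSA libraries and passed the filter on low counts through the libraries with palmitate, so they were left out of the counts after their values were seen. The other 8 (Nfkbia, Nfkbiz, Tnfaip3, Zc3h12a, Birc3, Icam1, Ptgs2 and Lif) had at least 10 counts in every BSA library, and all 8 were called higher with palmitate, with IL-1β and with both agents, beside 19.8%, 10.1% and 24.8% of all genes. Their medians were 2.25, 1.49 and 2.49 on the log2 scale. Icam1, the adhesion receptor for leukocytes, was 1.19 ± 0.435 CPM in BSA, 13.2 ± 0.879 with IL-1β, 110 ± 1.40 with palmitate and 123 ± 7.99 CPM with both (SD, n = 4). Zc3h12a, the RNase regnase-1, had 6.48 ± 0.448, 19.2 ± 0.965, 47.2 ± 2.38 and 46.2 ± 2.75 CPM in the same order, and the cytokine Lif had 3.49 ± 0.372, 9.71 ± 1.38, 25.8 ± 1.60 and 28.6 ± 2.12 CPM. Lcn2, the iron-binding protein lipocalin-2, was near the floor without palmitate, at 0.0682 ± 0.0696 CPM in BSA and 0.154 ± 0.0877 CPM with IL-1β, and stood at 6.01 ± 0.979 CPM with palmitate and 5.32 ± 0.821 CPM with both. The interaction was negative and called in 7 of the 8 genes, beside 1.83% of all genes, with -3.29 for Icam1 (adjusted p = 1.19e-15, edgeR).

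**Figure D5:**
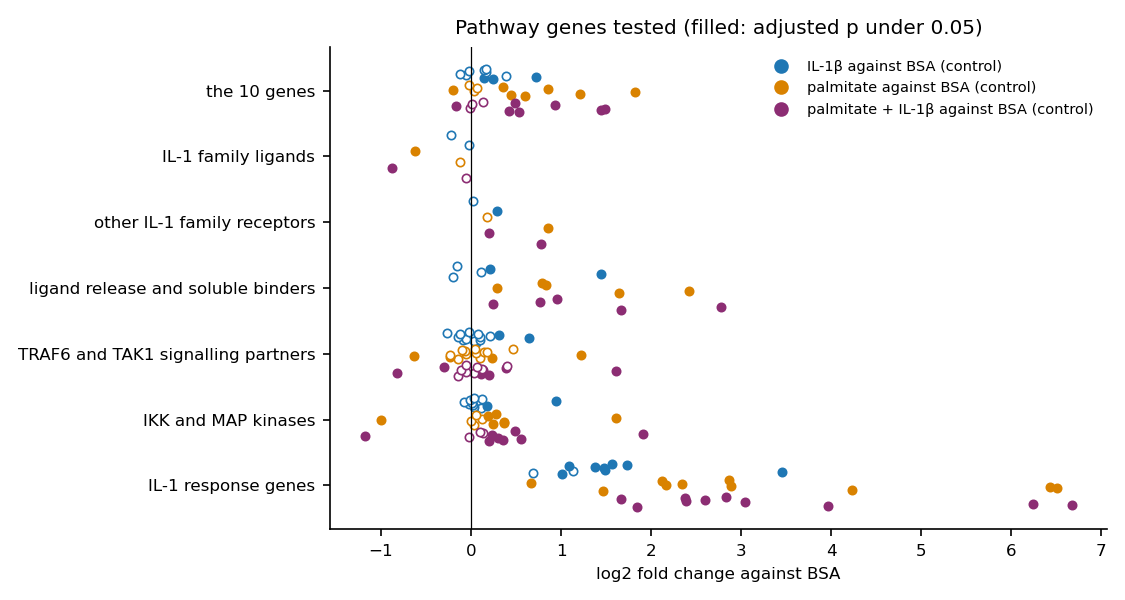
Log2 fold change against BSA of each tested gene (points) of the 10 genes and of the 6 lists of other pathway genes, for IL-1β, palmitate and palmitate + IL-1β, 4 libraries each; filled points passed an adjusted p under 0.05. The IL-1 response genes lie between 0.66 and 6.51 with palmitate, including Csf3 and Lcn2, which were near the floor in BSA, and most TRAF6 and TAK1 partners lie near 0.

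The genes whose levels followed the most variable members most closely over the 16 libraries were found by the root mean square difference of centred log2 CPM, a description in which all genes share the libraries and their depth. For Il1rl1 they were Abcc1 (0.0800), Tfrc (0.0870) and Usp53 (0.0880), with log2 fold changes of 1.17, 1.08 and 1.19 with palmitate and 0.69, 0.59 and 0.80 with IL-1β. For Irak3 they were H2-D1 (0.0920), Eif6 (0.106) and Fth1 (0.107), and for Il1rn they were Lrig1 (0.176), Ak4 (0.180) and Fam20c (0.183).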

How the data were processed

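Bulk RNA-seq of 16 mGF libraries, 4 per condition, was analysed. The authors used bcl2fastq2 for demultiplexing, Trimmomatic 0.39 for trimming, STAR 2.7.10a for alignment (GRCm39) and HTSeq 2.0.9 for counting by strand on GENCODE vM33, and the values they deposited are raw counts per gene. Tool versions are from the submitters' processing notes. The 5 summary rows (18.3 to 21.4% of a library) were left out, and all 16 columns were matched to samples by their names. The library kit is given as a stranded total RNA kit per the labels and as oligo(dT)-primed in the study's methods.

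Counts were tested with edgeR 4.0.16 (R 4.3.3; filterByExpr with minimum count 10 and minimum total 15, TMM, robust glmQLFit and glmQLFTest) in 1 fit of 16 libraries with a mean per condition, no covariate and 7 contrasts, with p-values adjusted over 16306 genes. The common biological coefficient of variation was 6.08%. Intervals use the degrees of freedom of the fit. Gene positions, exon lengths and start sites came from GENCODE vM39, which held 56323 of the 56941 genes. The fit was also run on simulated data, with the same spread for all genes and far fewer changed genes than here. That run does not show how the fit performs at the share of change in these data. Alternatives were DESeq2 1.42.0, other normalizations, filters and gene sets, fits of the compared libraries alone, and leaving out each library.

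The 10 genes, the pathway and marker lists and the rules were chosen with earlier results of these data known. Pathway genes were named where called in a comparison with BSA with average log2 CPM of at least 0, up to 4 a list by size of change. Il1b, Il1a, Il33 and Il1r2 were always named, and 3 nearest genes each were given for Il1rl1, Irak3 and Il1rn. Intervals and floors cover counting error or library spread only, since PCR copies were not marked.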

Additional observations from a re-analysis of the deposited data

Results flagged for a closer look

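In the palmitate + IL-1β libraries Irak1 was at 69.9 CPM in replicate 16, while the other 3 libraries were at 75.8 to 76.7 CPM, a gap of 0.858 of the range. In the IL-1β libraries Irak4 was at 12.8 CPM in replicate 8, with the others at 14.6 to 14.9 CPM, a gap of 0.854 of the range. These were 2 of the 40 groups of 4 libraries examined, and chance sets apart a library in about 1 group in 20. Neither gene was called with or without these libraries.

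Palmitate had a smaller effect in the presence of IL-1β than in its absence for Il1rl1 (-0.49 on the log2 scale, adjusted p = 1.98e-06, edgeR) and for Il1rn (-0.71, adjusted p = 0.0222, edgeR), both by the interaction term. In each condition with palmitate all 4 libraries of both genes were above all 4 libraries of the matching condition without it.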

How the results depend on the processing

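The 7 alternatives that kept all replicates gave 480 results of the 10 genes. Of these 469 kept their side of the threshold, 5 lost the call and 6 gained it. Of 640 without a single library, 611 kept their side, 22 lost the call and 7 gained it. No result called in the main fit or in the alternative changed direction. Direction was not compared for results called in neither. Leaving out each library in turn gave 6 to 7 genes called for palmitate against BSA, 2 to 3 for IL-1β against BSA, 6 to 8 for palmitate + IL-1β against BSA, 6 for palmitate + IL-1β against IL-1β, 1 to 2 for palmitate + IL-1β against palmitate, 6 to 7 for palmitate against IL-1β and 1 to 3 for the interaction. The 5 calls lost under other settings were those of Il1rap with IL-1β, with log2 values of 0.09 to 0.14 and adjusted p of 0.054 to 0.176. The 6 gained were the interaction of Il1r1 (DESeq2, adjusted p = 0.0418, no low-count filter, 0.00337, and without mitochondrially encoded and ribosomal RNA genes, 0.0476) and Traf6 in palmitate against IL-1β (-0.19 and adjusted p = 0.0812 in edgeR as reported, 0.0216 to 0.0482 otherwise). Traf6 in that comparison also passed without IL-1β replicate 5 (0.0333) or palmitate replicate 9 (0.0419). The causes were not tested. No paired analysis was possible because the labels do not say which libraries of different conditions belong together. Il1r2, Il18r1, Il1a and Il1b had too few counts to be tested. Il1b had 0 counts in the deepest library, so its level was under the floor of 0.0331 CPM there.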
